A study of Homo sapiens with 15 samples.

Results

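The 6 genes C2CD4A, SLC14A1, ELMOD1, MARCHF4, HOPX and ITGBL1 were chosen by their expression in osteosarcoma stem cells (OSCs, cells grown as spheres) relative to non-OSCs (the same cells grown attached to the dish), out of 62700 genes in the count tables. C2CD4A, SLC14A1 and ELMOD1 represented the large rises in spheres, and MARCHF4, HOPX and ITGBL1 the large falls. All RNA came from 143B, an established human osteosarcoma cell line, in 15 libraries of 5 conditions with 3 libraries each. The first experiment held OSCs and non-OSCs. The second held spheres infected with lentiviral short hairpin RNAs, either a control (shCtrl) or 1 of 2 hairpins against PDK1 (shPDK1#1 and shPDK1#2). Spheres were grown in a medium with B27, EGF and basic FGF, for which the methods list no serum, and attached cells with fetal bovine serum, so culture format, serum and growth factors cannot be told apart. The question asked of each gene was whether knockdown of PDK1, the kinase that inactivates pyruvate dehydrogenase and so holds pyruvate back from the mitochondria, moved its expression from the sphere level towards the attached level.

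The 6 genes encode proteins of different kinds. They were picked as large changes in spheres, although ELMOD1 came only at rank 87 among the rises. C2CD4A encodes a nuclear protein with a C2 domain, known as an inflammation-induced gene, SLC14A1 the urea transporter UT-B, and ELMOD1 a protein that activates GTP hydrolysis by small GTPases of the ARF family. MARCHF4 encodes a membrane-bound ubiquitin ligase of the Golgi, HOPX a homeodomain protein that does not bind DNA itself and restrains the transcription factor SRF, and ITGBL1 a secreted protein that resembles the stalk of integrin beta chains. Growth as spheres in serum-free medium is a standard way to enrich cells with stem-like properties, and loss of attachment is known to change the expression of matrix, adhesion and signalling genes.

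The promoters of 5 of the 6 genes were found in the RefSeq table on GRCh38.p14, in 7 windows of 250 bases before a transcription start, and ELMOD1 was not matched. The windows of C2CD4A and MARCHF4 are shown because these are the largest rise and the largest fall within the set. They are printed 5′ to 3′ on the strand of the gene, at chr15:62066727-62066976 (plus strand) and chr2:216372484-216372733 (minus strand), and capitals mark the motifs found.
C2CD4A: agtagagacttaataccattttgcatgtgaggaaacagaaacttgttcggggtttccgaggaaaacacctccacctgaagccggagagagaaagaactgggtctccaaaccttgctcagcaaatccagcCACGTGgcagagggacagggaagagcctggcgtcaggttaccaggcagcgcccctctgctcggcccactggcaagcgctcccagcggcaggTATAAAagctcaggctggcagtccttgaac
MARCHF4: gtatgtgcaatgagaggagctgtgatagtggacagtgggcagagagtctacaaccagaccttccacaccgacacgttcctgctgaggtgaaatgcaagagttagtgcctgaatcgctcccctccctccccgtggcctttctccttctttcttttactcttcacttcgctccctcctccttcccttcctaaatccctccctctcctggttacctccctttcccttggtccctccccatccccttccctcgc
The capitals in the C2CD4A window are a TATA box (TATAAA), which begins 30 bases before the start, and an E-box (CACGTG), which begins 121 bases before it. On either strand, TATAAA was present in 10.7% and CACGTG in 6.35% of the 35116 promoter windows in the table. The MARCHF4 window held none of the 8 motifs searched, and neither did the 2 windows of HOPX. ITGBL1 held a single SP1 site (GGGCGG, 42.6% of all windows) and SLC14A1 a single TEAD site (GGAATG, 11.9%) in the upstream one of its 2 windows. The AP-1 site (TGANTCA, 6.57%), the cyclic AMP response element (TGACGTCA, 1.65%), the EGR1 site (GCGNGGGCG, 8.41%) and the CArG box (1.16%) occurred in none of the 7 windows. GC content was 55.6% for C2CD4A, 55.2% for MARCHF4 and 44% for ITGBL1, beside a median of 58% over all windows.

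The summed counts lay between 7992499 and 10495051 per library in the first experiment and between 8073055 and 11256536 in the second, and 2.69% to 3.89% of counts came from the mitochondrial genome. Of the osteoblast lineage markers, COL1A1, SPP1, SPARC and RUNX2 were expressed, whereas IBSP was at 0 in every group and SP7 at or near 0. The summed osteoblast list in CPM (counts scaled to a common library size) was 2495 to 2576 in OSCs and 1083 to 1146 in non-OSCs, with COL1A1, SPP1 and SPARC higher in OSCs and RUNX2 (17.3 against 37.7 CPM) and ALPL (1.49 against 2.66 CPM) lower. Lymphocyte, endothelial, myeloid and epithelial markers summed to at most 4.55 CPM in any library. The 3 pericyte markers summed to 45.7 to 47.4 CPM in OSCs, 20.8 to 25.1 CPM in non-OSCs and 27.0 to 39.4 CPM in the knockdown experiment. The 3 osteoclast markers summed to 77.4 to 80.8 CPM in OSCs and 27.5 to 30.7 CPM in non-OSCs, and to 51.3 to 56.2, 34.5 to 42.8 and 22.3 to 26.5 CPM with shCtrl, shPDK1#1 and shPDK1#2. Most of this was MMP9, a secreted gelatinase, which was lower with both hairpins (log2 −0.60 and −1.18), while ACP5 was at or near 0. The part of these marker genes in the changes of the 6 genes was not tested. PDK1 itself was reduced in every knockdown library. Its level was 46.7, 44.7 and 44.4 CPM with shCtrl, 29.0, 27.8 and 27.3 CPM after shPDK1#1, and 18.3, 21.5 and 19.6 CPM after shPDK1#2, leaving 62.0% and 43.7% of the control level. The shCtrl mean of 45.2 CPM was near the non-OSC mean of 46.6 CPM and below the OSC mean of 70.3 CPM. This difference between the experiments was not tested. The labels do not say that replicates were separate cultures, so p-values measure the spread between these libraries, which may be technical.

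Among the genes that rose in spheres, C2CD4A and SLC14A1 went from under 3 CPM to well expressed. In non-OSCs C2CD4A was at 0.39, 0.22 and 0.66 CPM, or 2 to 6 counts, and in OSCs at 30.2, 35.2 and 33.7 CPM. The mean was 78.3-fold higher in OSCs (log2 fold change 6.25, SE 0.22). SLC14A1 was at 2.80, 1.75 and 1.87 CPM in non-OSCs and at 88.95, 89.2 and 88.7 CPM in OSCs, a 41.6-fold difference (log2 5.35, SE 0.13). The 3 OSC libraries of SLC14A1 lay within an SD of 0.28 CPM. ELMOD1 was at 1.35, 1.64 and 1.54 CPM in non-OSCs and at 15.3, 14.9 and 15.3 CPM in OSCs, 10.03-fold higher (log2 3.32, SE 0.20). For all 3 genes, every OSC library lay above every non-OSC library, a separation that the ranking given below required. Of 14287 genes tested, 3479 called rises averaging at least 10 CPM met it. In RNA from bulk cultures, a change in the number of expressing cells and a change per cell cannot be told apart.

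The genes that fell did so from moderate levels to a few counts. MARCHF4 was at 30.5, 30.9 and 31.8 CPM in non-OSCs and at 1.23, 1.21 and 0.85 CPM in OSCs, 28.3-fold lower there (log2 −4.80, SE 0.18). HOPX was at 23.3, 20.5 and 25.1 CPM in non-OSCs and at 1.35, 1.21 and 1.33 CPM in OSCs, 17.7-fold lower (log2 −4.14, SE 0.19). ITGBL1 was at 22.85, 17.7 and 18.6 CPM in non-OSCs and at 2.09, 1.42 and 0.48 CPM in OSCs, 14.8-fold lower (log2 −3.88, SE 0.25). Every OSC library lay below every non-OSC library here, as the ranking required and as in 3574 called falls averaging at least 10 CPM. The OSC levels rest on 4 to 17 counts per library. Per kilobase of annotated exons, SLC14A1 (12.4 ± 0.039 CPM per kb, SD, n = 3) and C2CD4A (9.59 ± 0.75) were the most abundant of the set in OSCs, and MARCHF4 (6.33 ± 0.14) was the most abundant in non-OSCs.

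These differences chose the genes and are given without a test. Across 14287 genes, 32.4% were called higher and 31.5% lower in OSCs at an adjusted p under 0.05. When genes averaging under 10 CPM and genes with overlapping libraries were also set aside, 3479 rises and 3574 falls remained, and in that order MARCHF4, HOPX and ITGBL1 were the 3 largest falls. C2CD4A and SLC14A1 were the second and the third largest rises, behind MMP10, a secreted metalloproteinase (log2 8.44), which was named after its values were seen. ELMOD1 had a mean of 8.34 CPM and was not ranked. Without the minimum it came at rank 87 among the rises, and the others also moved down, C2CD4A to rank 9, SLC14A1 to 12, MARCHF4 to 6, HOPX to 10 and ITGBL1 to 15, so the order given holds for genes averaging at least 10 CPM. Just outside the set were FOSB, an immediate early transcription factor (log2 4.92), as the next rise and CCN2, a secreted matricellular protein (log2 −3.71), as the next fall.

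**Figure D1:**
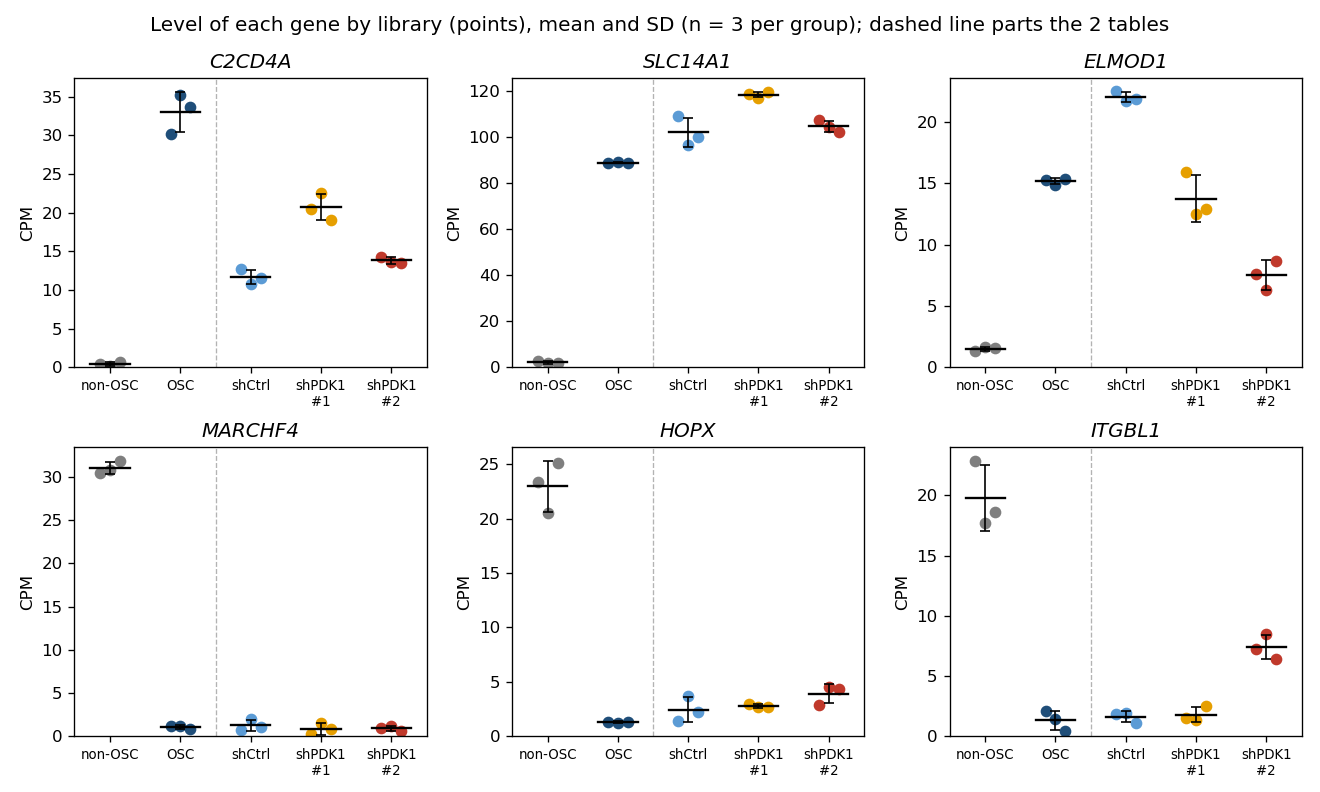
Expression in CPM (vertical axes, from 0) of the 6 genes in each library of the 5 conditions (horizontal axes), with points for libraries and lines and bars for the mean and SD of 3. ELMOD1 steps down from 22.0 to 13.7 and 7.52 CPM from shCtrl to shPDK1#1 and shPDK1#2, and ITGBL1 rises to 7.41 CPM with shPDK1#2, while MARCHF4 and HOPX stay below 5 CPM in all sphere libraries.

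Measured from shCtrl, ELMOD1 moved towards its attached level with both hairpins. It was at 22.5, 21.7 and 21.9 CPM with shCtrl, at 15.9, 12.5 and 12.9 CPM with shPDK1#1 and at 7.64, 6.27 and 8.65 CPM with shPDK1#2, with no overlap between any 2 of the groups. It fell to 62.5% of the control with shPDK1#1 (log2 −0.69, 95% CI −0.94 to −0.43, adjusted p = 0.00144 by edgeR) and to 34.2% with shPDK1#2 (log2 −1.55, 95% CI −1.83 to −1.27, adjusted p = 1.78e-09). The fall was larger with shPDK1#2 than with shPDK1#1 (log2 −0.86, SE 0.14, adjusted p = 7.81e-05). Set against its sphere rise on the log2 scale, these changes amounted to 20.7% ± 3.95 (SE) and 46.7% ± 4.95. They start from a shCtrl mean of 22.0 CPM, above the OSC mean of 15.2 CPM. The shPDK1#1 mean of 13.7 CPM lay near that OSC mean, and the shPDK1#2 mean of 7.52 CPM lay below it. Both hairpins were compared with the same shCtrl libraries, and the fall of ELMOD1 in these libraries was known when the set was formed.

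ITGBL1 moved towards its attached level with shPDK1#2. It was at 1.86, 1.91 and 1.12 CPM with shCtrl (9 to 19 counts), at 1.49, 1.36 and 2.50 CPM with shPDK1#1 (12 to 28 counts) and at 7.26, 8.49 and 6.46 CPM with shPDK1#2 (62 to 84 counts). The shPDK1#2 libraries lay above all others, while those of shPDK1#1 and shCtrl overlapped. ITGBL1 rose to 454% of the control with shPDK1#2 (log2 2.16, 95% CI 1.57 to 2.75, adjusted p = 1.87e-06), which was 55.6% ± 8.22 (SE) of its sphere fall. With shPDK1#1 the log2 fold change was 0.14 (95% CI −0.57 to 0.85, adjusted p = 0.911), and the 2 hairpins differed by 2.02 (SE 0.28, adjusted p = 7.19e-06).

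Several measured facts stand beside the ITGBL1 rise. Exons of FGF14, which runs on the other strand, cover 70.5% of the ITGBL1 exons, and the labels do not state whether counting used strand. FGF14 was counted at 0 to 10 counts in the 9 knockdown libraries, and its group means were 0.48, 0.51 and 0.68 CPM. NALCN, a sodium leak channel gene 36.1 kb from ITGBL1, also rose with shPDK1#2, from 0.74 ± 0.50 to 2.89 ± 0.51 CPM (log2 1.89, SE 0.43, adjusted p = 0.0015). Of 10 fibroblast markers, 8 were tested, of which 5 were higher and 2 lower with shPDK1#2 and 3 were higher and 1 lower with shPDK1#1. Of all genes, 12% were higher and 14.2% lower with shPDK1#2, and 1.62% and 1.44% with shPDK1#1. With shPDK1#2 the collagen COL3A1 went from 4.85 to 86.4 CPM and the matricellular protein POSTN from 0.23 to 6.69 CPM, while DCN and THY1 were at or near 0. FBLN1 and COL6A3 were lower with shPDK1#2 (log2 −0.19 and −0.20). COL3A1 and POSTN were also higher with shPDK1#1 (log2 2.02 and 3.14), where ITGBL1 was not called. The summed fibroblast list was 4331 to 4395 CPM with shCtrl, 4374 to 4510 CPM with shPDK1#1 and 3824 to 4018 CPM with shPDK1#2. Most of each sum was COL6A3, which averaged 3894, 3941 and 3387 CPM in these groups. Of 8 osteoblast lineage markers, 5 were tested, and COL1A1, SPP1 and SPARC were higher with shPDK1#2, and the summed list was 3650 to 3729 CPM with shCtrl, 3918 to 3992 CPM with shPDK1#1 and 5209 to 5343 CPM with shPDK1#2. The part of these genes in the ITGBL1 rise was not tested.

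C2CD4A and SLC14A1, the most elevated genes of the set, were not called in the direction of their attached levels with either hairpin. C2CD4A was at 12.7, 10.8 and 11.55 CPM with shCtrl, at 20.5, 22.5 and 19.1 CPM with shPDK1#1 and at 14.3, 13.7 and 13.5 CPM with shPDK1#2. All 3 groups were separate, with shPDK1#1 the highest. C2CD4A rose with shPDK1#1, which is away from the attached level (log2 0.82, 95% CI 0.58 to 1.06, adjusted p = 7.94e-05). With shPDK1#2 the log2 fold change was 0.24 (95% CI −0.01 to 0.50, adjusted p = 0.151), and it was lower by 0.58 (SE 0.11, adjusted p = 0.000562) than with shPDK1#1. On the sphere scale the changes were −13.1% ± 1.93 and −3.91% ± 1.96 (SE), the minus sign marking a move further from non-OSCs.

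SLC14A1 was at 109, 96.8 and 100.3 CPM with shCtrl, at 118.5, 117.1 and 119.5 CPM with shPDK1#1 and at 107.3, 104.5 and 102.3 CPM with shPDK1#2. The shPDK1#1 libraries lay above the others, and those of shPDK1#2 lay within the shCtrl range. The log2 fold change with shPDK1#1 was 0.22 (95% CI 0.10 to 0.33, adjusted p = 0.0223), a call lost when shCtrl replicate 2 (0.18, adjusted p = 0.17), shCtrl replicate 3 (0.20, adjusted p = 0.106), shPDK1#1 replicate 1 (0.21, adjusted p = 0.0633) or shPDK1#1 replicate 3 (0.21, adjusted p = 0.103) was left out. With shPDK1#2 it was 0.04 (95% CI −0.07 to 0.15, adjusted p = 0.658), so the lower bound was a small share of the sphere rise of 5.35. The 2 hairpins differed by −0.18 (SE 0.053, adjusted p = 0.0218), and this call was lost without shPDK1#1 replicate 1 or 3 or shPDK1#2 replicate 2 or 3 (adjusted p up to 0.0882).

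MARCHF4 and HOPX were not called with either hairpin, and their intervals stopped short of the size of their sphere falls. MARCHF4 was at 0.77, 2.01 and 1.12 CPM with shCtrl (7 to 20 counts), at 0.25, 1.57 and 0.80 CPM with shPDK1#1 (2 to 15 counts) and at 0.93, 1.21 and 0.63 CPM with shPDK1#2 (6 to 12 counts), and all groups overlapped. Its log2 fold change was −0.55 with shPDK1#1 (95% CI −1.66 to 0.56, adjusted p = 0.71) and −0.50 with shPDK1#2 (95% CI −1.59 to 0.59, adjusted p = 0.535). The upper bounds of 0.56 and 0.59 lie below the size of its sphere fall of 4.80 (log2 −4.80), so a rise of that size was outside the intervals. With single libraries left out the values ranged from −1.21 to −0.06 and from −0.77 to −0.02, and in both cases the value nearest 0 came without shCtrl replicate 2. HOPX was at 1.42, 3.71 and 2.24 CPM with shCtrl (13 to 37 counts), at 2.99, 2.72 and 2.68 CPM with shPDK1#1 (24 to 30 counts) and at 2.89, 4.55 and 4.38 CPM with shPDK1#2 (31 to 45 counts). Its log2 fold change was 0.16 with shPDK1#1 (95% CI −0.52 to 0.85, adjusted p = 0.887) and 0.66 with shPDK1#2 (95% CI 0.01 to 1.31, adjusted p = 0.132), with both upper bounds below its sphere fall of 4.14 in size (log2 −4.14). The shCtrl replicate 2 library was the highest control for both genes, and without it the HOPX value with shPDK1#2 was 1.11 (adjusted p = 0.0285).

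**Figure D2:**
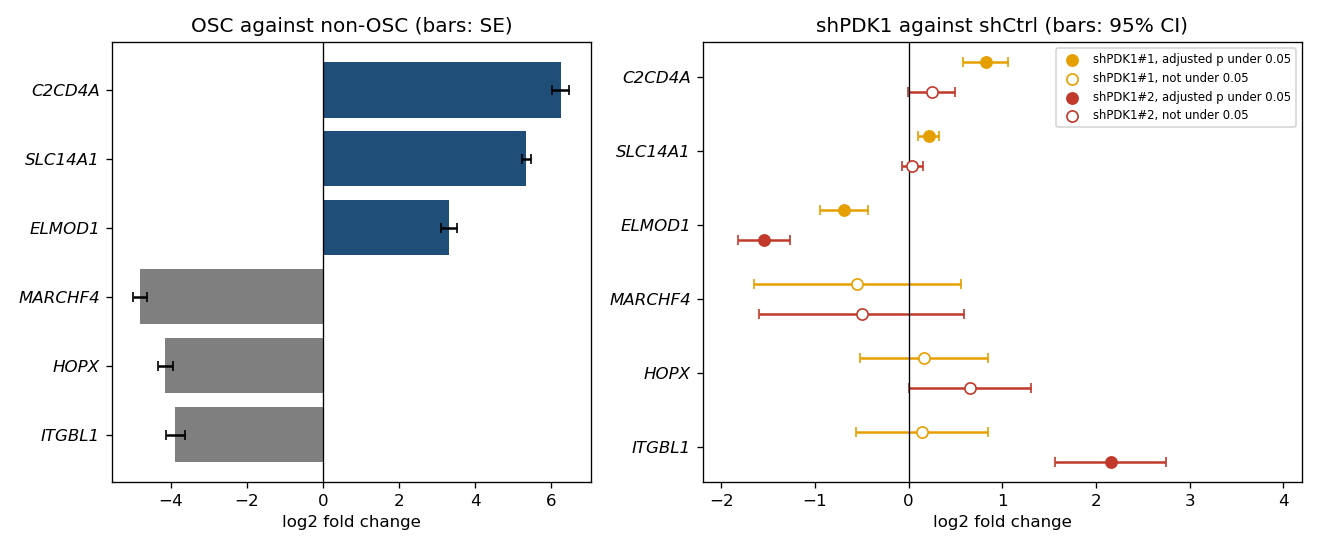
Log2 fold changes (horizontal axes) of the 6 genes (vertical axis) for OSCs against non-OSCs on the left, with bars drawn from 0 and SE, and for each PDK1 hairpin against shCtrl on the right, with points and 95% confidence intervals. ELMOD1 lies left of 0 with both hairpins (−0.69 and −1.55), ITGBL1 lies right of 0 with shPDK1#2 (2.16), and the intervals of MARCHF4 cross 0 with both.

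Of the 6 genes, 3 were called with shPDK1#1, of which 2 were higher and 1 lower, beside 1.62% of 14574 genes called higher and 1.44% called lower. With shPDK1#2, 1 was higher and 1 lower, beside 12% and 14.2% of all genes, a share of the set near the background in each direction. The number of genes called with shPDK1#1 was sensitive to single libraries, with 236 higher and 210 lower in the full data but 128 and 117 without shPDK1#1 replicate 3. Between the hairpins, 1 gene of the set was higher with shPDK1#2 and 3 were lower, beside 6.5% and 9.78% of all genes. Only ELMOD1 was called in the direction of the attached level with both hairpins, ITGBL1 was so called with shPDK1#2, and none of the other 4 was. The fall of ELMOD1 in these libraries was known when the set was formed, and its sphere rise came only at rank 87. Its calls, and the counts out of 6 that include them, are therefore not results for genes chosen by sphere change alone. The 2 experiments were counted in separate tables, and their sphere controls differed in level: C2CD4A averaged 33.0 CPM in OSCs and 11.7 CPM with shCtrl, ELMOD1 15.2 and 22.0 CPM, and HOPX 1.299 and 2.46 CPM. PDK1 itself averaged 70.3 CPM in OSCs and 45.2 CPM with shCtrl, beside 46.6 CPM in non-OSCs. These differences between tables were not tested, and the shares of the sphere change given above are read within that limit.

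The larger ranks were compared with the 6 genes in the same way. Of the 50 largest rises in spheres, 34 were lower (68%) and 8 higher (16%) with shPDK1#2, beside 14.2% and 12% of all genes. The median log2 fold change was −0.50, against 0.0083 over all genes tested. FOSB (log2 −1.53, adjusted p = 4.19e-12) and MMP10 (log2 −1.47, adjusted p = 9.05e-15) were among those lower. By edgeR, FOSB was also lower with shPDK1#1 (log2 −0.44, adjusted p = 0.00338), whereas MMP10 was higher (log2 0.26, adjusted p = 0.00791). With shPDK1#1, 11 of the 50 rises were lower (22%) and 9 higher (18%), beside 1.44% and 1.62% of all genes, with a median of 0.02. C2CD4A and SLC14A1 were thus outside the 34 that fell with shPDK1#2 and among the 9 that rose with shPDK1#1. Of the 50 largest falls, 49 were tested, and 21 were higher (42.9%) and 7 lower (14.3%) with shPDK1#2 (median 0.26). The shares of all genes were 12% and 14.2%, so the share called lower was near that of all genes. CCN2 was higher by 0.33 (adjusted p = 0.00849). ITGBL1 was 1 of the 21, and MARCHF4 and HOPX were not. With shPDK1#1, 1 of the 49 was higher and 0 were lower by edgeR's test and by DESeq2, with 10 higher and 5 lower at an unadjusted p under 0.05. By edgeR 1.62% of all genes were higher and 1.44% lower.

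The shift was present in every shPDK1#2 library. With the set left out, the mean log2 CPM of the remaining 48 rises stood at −0.57, −0.58 and −0.56 from the shCtrl mean in the shPDK1#2 libraries and at −0.05, −0.01 and −0.04 in those of shPDK1#1. The remaining 46 falls stood at 0.15, 0.16 and 0.15 and at 0.02, 0.05 and 0.03. The shCtrl libraries themselves varied between −0.04 and 0.04 for the rises and between −0.05 and 0.04 for the falls.

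**Figure D3:**
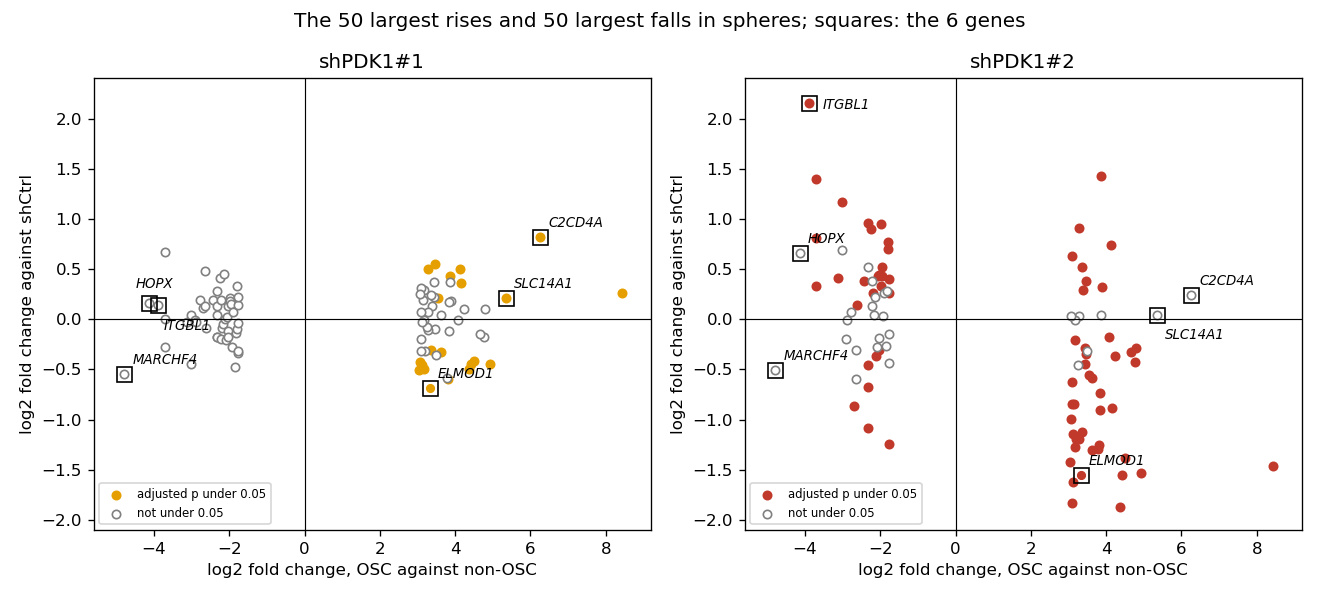
Log2 fold change in spheres (horizontal axes) against the log2 fold change with each hairpin (vertical axes) for the 50 largest rises and the 50 largest falls, with squares around the 6 genes and filled points for an adjusted p under 0.05. With shPDK1#2 most rises lie below 0 (34 of 50 called lower, beside 14.2% of all genes), whereas C2CD4A and SLC14A1 lie at 0.24 and 0.04.

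Relatives and partners of each gene were read from lists built around it. Of the C2CD4 family, C2CD4B lies 92.6 kb from C2CD4A and was counted at 0 to 9 counts, and C2CD4C, the other tested member, was not called with either hairpin (log2 −0.01 and −0.07). C2CD4A and C2CD4B share 1.04% of stretches of 75 bases. The other urea transporter gene, SLC14A2, had 0 to 3 counts in the knockdown libraries. Of the other 8 genes for urea transporters, aquaporins and arginases, 2 were tested, and ARG2, the mitochondrial arginase that produces urea, was lower with shPDK1#2 (log2 −0.44). Among all genes tested, 14.2% were lower and 12% higher with shPDK1#2.

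Of the 10 ELMO domain proteins and partners other than ELMOD1, all tested, 0 were called with shPDK1#1 by edgeR or DESeq2, with 0 at an unadjusted p under 0.05, and ELMO3, an adaptor that works with DOCK exchange factors, was higher with shPDK1#2 (log2 1.27, adjusted p = 0.0164). Their median log2 fold change was −0.01 and −0.05. The shares of all genes called higher and lower were 1.62% and 1.44% with shPDK1#1 and 12% and 14.2% with shPDK1#2. The closest relatives, ELMOD2 and ELMOD3, were not called. ELMO2 had an unadjusted p of 0.041 with shPDK1#2 (log2 −0.15, adjusted p = 0.119). ELMOD1 was the gene of its list called lower with each hairpin, and its difference from the other genes of the list was not tested.

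Of the 8 other MARCHF ubiquitin ligases tested, MARCHF7 was lower with shPDK1#2 (log2 −0.17) and the rest were not called. Among all genes tested, 14.2% were lower and 12% higher with shPDK1#2, and 1.44% and 1.62% with shPDK1#1. In spheres MARCHF7 averaged 140 CPM against 108 CPM in non-OSCs, beside 1.10 and 31.1 CPM for MARCHF4.

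Of the 6 tested partners of HOPX and SRF target genes, the SRF coactivator MRTFA was lower with shPDK1#2 (log2 −0.49), and SRF and HDAC2 were not called with either hairpin. Of the 5 integrin beta subunits tested beside ITGBL1, ITGB3 (log2 −0.47 and −0.74) and ITGB8 (−0.53 and −0.56) were lower with both hairpins. ITGB1 (−0.30) and ITGB5 (−0.12) were lower and ITGB4 (0.39) higher with shPDK1#2. ITGBL1, which lacks the membrane anchor of these receptor chains, rose with shPDK1#2 while 4 of the 5 tested receptor chains fell. Of all genes, 14.2% were called lower and 12% higher with shPDK1#2, and 1.44% and 1.62% with shPDK1#1. With shPDK1#1 ITGBL1 was not called, and its difference from the receptor chains was not tested.

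**Figure D4:**
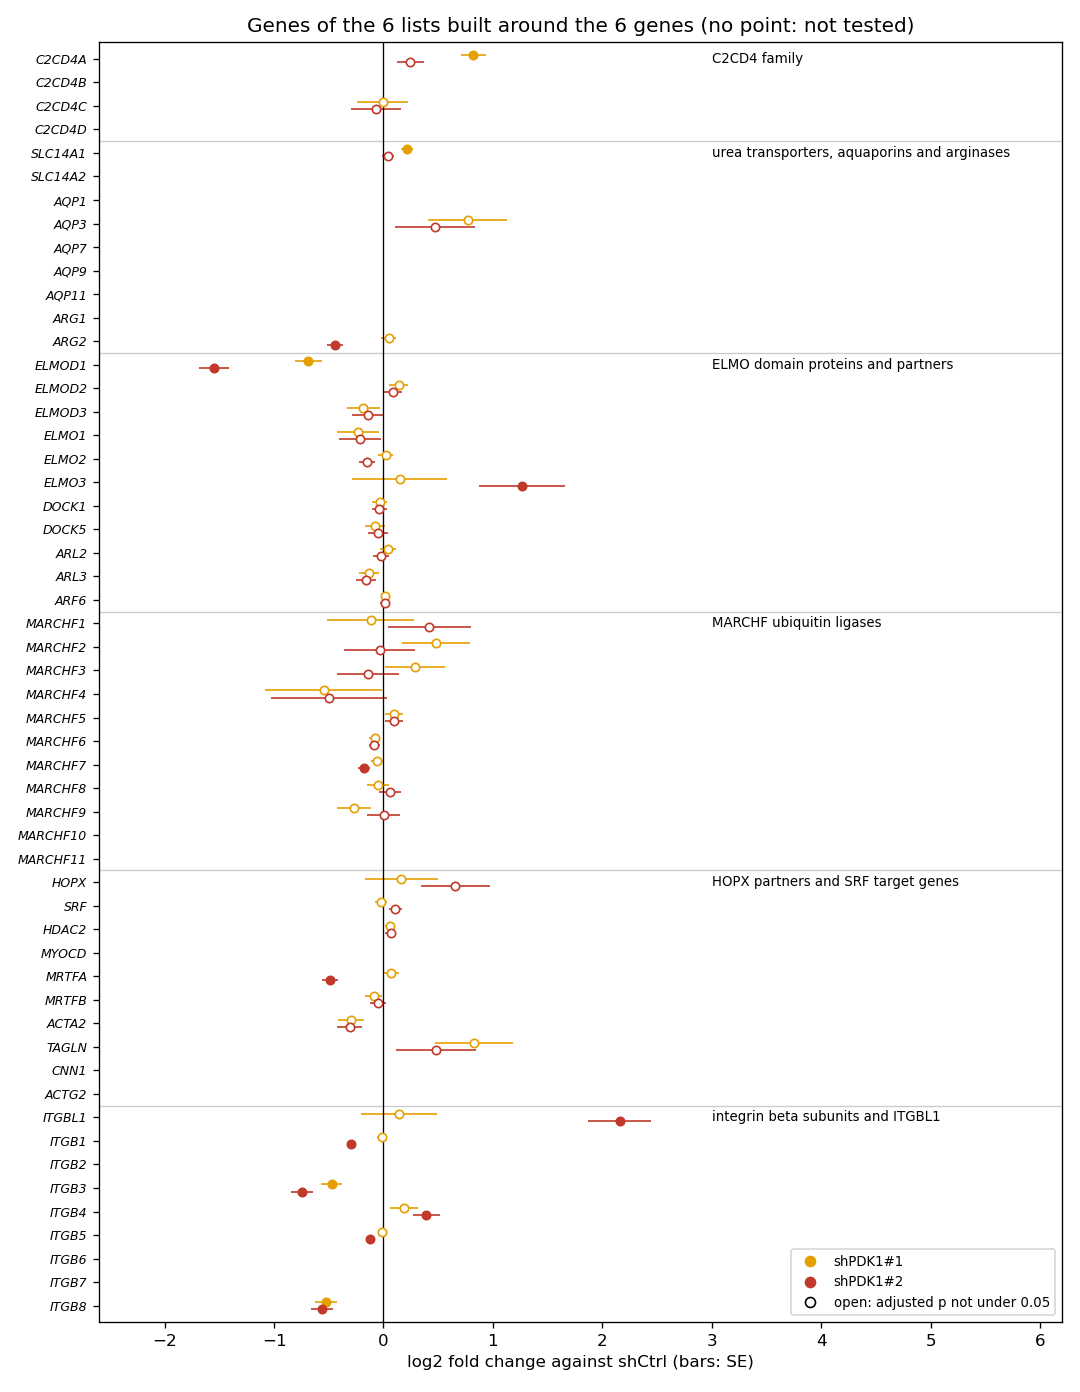
Log2 fold change with shPDK1#1 and shPDK1#2 against shCtrl (horizontal axis, bars of SE) for the genes of 6 lists built around the 6 genes (vertical axis), filled where the adjusted p was under 0.05. ELMOD1 is the gene of its list called lower (−0.69 and −1.55), and ITGBL1 (2.16) lies opposite to ITGB1, ITGB3, ITGB5 and ITGB8.

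Within 250 kb of the 6 genes, 25 other protein-coding genes were annotated, and 19 were tested. With shPDK1#1, 0 were called by edgeR's test, 5 had an unadjusted p under 0.05 and 1 was called by DESeq2. By edgeR 1.62% of all genes were higher and 1.44% lower with shPDK1#1, so 0 of 19 is near the background. With shPDK1#2, 5 of the 19 were higher and 2 lower, beside 12% and 14.2% of all genes. VPS13C, 6.5 kb from C2CD4A, was lower (log2 −0.33), as was ALKBH8, 25.3 kb from ELMOD1 (log2 −0.33). NALCN near ITGBL1 (log2 1.89), PAICS (0.23) and SRP72 (0.25) near HOPX, and RPL37A (0.31) and XRCC5 (0.12) near MARCHF4 were higher. CWF19L2 and SLC35F2, which lie further from ELMOD1, were not called.

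The genes with the most similar profile over the 9 knockdown libraries were sought among 10059 genes by Pearson r of log2 CPM, as a description of libraries that share 3 groups. For ELMOD1 these were the kinase gene YES1, the deadenylase gene CNOT6 and the elongation factor scaffold gene AFF4, each with an r of 0.99. For C2CD4A they were the immediate early genes IER3 (0.98) and NR4A2 (0.94) and the ubiquitin ligase gene LNX2 (0.94). SLC14A1 was closest to KDM4A (0.94), C2CD4A (0.93) and MAMLD1 (0.92), so that C2CD4A and SLC14A1 had like profiles by Pearson r. By Spearman rank correlation SLC14A1 was at 0.83 with C2CD4A, 0.93 with KDM4A and 0.92 with MAMLD1. HOPX was closest to ZNG1C (0.96), TMEM141 (0.91) and NQO1 (0.91), of which ZNG1C has near-identical copies among which reads can be divided. MARCHF4 and ITGBL1 fell below 10 counts in at least 1 library and were not compared.

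The 6 genes lie on 6 chromosomes of GRCh38 in the GENCODE 44 annotation. C2CD4A is at chr15:62066977-62070917 and ELMOD1 at chr11:107591091-107666779, both on the plus strand, with 2 and 18 merged exons. SLC14A1 (chr18:45687025-45752520) and ITGBL1 (chr13:101452593-101720856) are also on the plus strand, with 13 merged exons each. MARCHF4 (chr2:216257865-216372483, 4 merged exons) and HOPX (chr4:56647989-56681877, 7 merged exons) are on the minus strand. Apart from ITGBL1, an overlap with another gene was found only for MARCHF4, over 1.73% of its exons, with a gene counted at 0 counts in every library.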

How the data were processed

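RNA of 143B cells was sequenced from 15 libraries. Libraries were prepared with the NEBNext Ultra RNA kit per the labels and read as paired ends on an Illumina NovaSeq instrument. According to the submitters' processing notes, reads were trimmed with Trimmomatic 0.39, checked with FastQC 0.12.1, aligned to GRCh38.p14 with STAR 2.7.11a and quantified with RSEM 1.3.3. The authors deposited expected counts per gene, without normalization, in separate tables for the OSC and the knockdown libraries. RSEM divides reads that match several genes, so 6.85% and 6.92% of values were not whole numbers, and values were rounded here. All 62700 gene identifiers matched GENCODE 44. The strand setting is not given in the sources used here.

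Genes were tested with edgeR 4.0.16 in R 4.3.3 (TMM, filterByExpr by group, quasi-likelihood test, Benjamini-Hochberg adjustment over all genes, threshold 0.05), with the 9 knockdown libraries in 1 fit, so that both hairpin comparisons use the same shCtrl libraries. The tables were never tested against each other. CPM used TMM library sizes, and log2 CPM a prior count of 2. The share of the sphere change was minus the knockdown log2 fold change divided by the sphere log2 fold change, with a delta-method SE. Pairs of replicates all differed by more than sampling noise. Scripts were first tested on simulated counts. Alternatives were DESeq2 1.42.0, library size alone, a replicate block, no filter, a minimum of 10 counts per library, fits of the compared groups alone, each library left out, 100 ranks and Spearman rank correlation.

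The members and lists were chosen with earlier results of these data known. Beyond the members and PDK1, the genes named were the next rise and fall, the 3 most similar profiles, called genes of the lists and protein-coding genes within 250 kb, and any further gene was picked with its values in view. Similar profiles were sought for members with at least 10 counts in every knockdown library. Other experiments of the study, on single cells, proteins and animals, were not analysed here. The result of 1 further list is not reported here.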

Additional observations from a re-analysis of the deposited data

Results flagged for a closer look

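For 4 of the 6 genes the response differed between the 2 PDK1 hairpins by a test of the difference itself (edgeR, shPDK1#2 minus shPDK1#1 on the log2 scale). Of all genes, 6.5% were higher and 9.78% lower in that test. For ITGBL1 the difference was 2.02, since its level was 454% of the control with shPDK1#2 and 110% with shPDK1#1. For ELMOD1 it was −0.86, its level being lower than the control with both. C2CD4A differed by −0.58, being higher than the control with shPDK1#1. SLC14A1 differed by −0.18, the smallest of these differences and one that was lost when any of 4 libraries was left out. PDK1 itself was lower with shPDK1#2 than with shPDK1#1 by 0.50 (log2 −0.50, adjusted p = 0.00024). The part of the remaining PDK1 in these differences was not tested.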

How the results depend on the processing

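Of the values recomputed under the alternatives, 481 kept their direction and their side of the threshold, 8 lost a call, 1 gained one, 8 moved and 7 changed sign. Every value that lost or gained a call or changed sign did so when 1 library was left out, and the cause was not tested. Over these fits the log2 fold change of SLC14A1 ranged from 0.18 to 0.27 with shPDK1#1, from −0.00052 to 0.088 with shPDK1#2 and from −0.20 to −0.16 between hairpins. HOPX ranged from −0.11 to 0.62 with shPDK1#1 and from 0.38 to 1.11 with shPDK1#2. ITGBL1 with shPDK1#1 ranged from −0.22 to 0.31, and MARCHF4 between hairpins from −0.34 to 0.71 (−1.21 to −0.06 with shPDK1#1 and −0.77 to −0.02 with shPDK1#2). Genes called with shPDK1#1 ranged from 128 to 272 higher and from 117 to 236 lower. With 100 ranks in place of 50, the share of falls called lower with shPDK1#1 was 3.03% in place of 0%. MARCHF4 and ITGBL1 had no value where at least 10 counts were required in every library, and several DESeq2 adjusted p-values of low genes were not given.

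Replicate numbers did not pair the libraries: deviations of same-numbered libraries correlated between −0.05 and 0.09 in the knockdown table and between −0.01 and 0.07 in the other. With a replicate block, ELMOD1 was at −0.69 and −1.56, ITGBL1 at 2.16 with shPDK1#2 and SLC14A1 at 0.22 with shPDK1#1 (adjusted p = 0.0148), and no call changed. Genes called higher with shPDK1#1 numbered 266 with the block and 236 without. Levels of MARCHF4, HOPX and ITGBL1 in spheres rest on 2 to 45 counts outside the shPDK1#2 libraries of ITGBL1, which widens their intervals.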
